A study of Mus musculus with 2 samples.

Results

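Paneth cells are the antimicrobial secretory cells at the base of the small intestinal crypt. The cells described here were those that the authors' deposited cell annotation names Paneth in the 2 libraries of 375KO mice, which lack miR-375 in the whole body. There were 132 such cells of 3275 annotated cells, with 78 of 2082 in replicate 1 and 54 of 1193 in replicate 2, and all of them lay in 1 cluster of the annotation. Paneth cells were 3.75% of the annotated cells in replicate 1 (95% exact binomial interval 2.97 to 4.65) and 4.53% in replicate 2 (3.42 to 5.86), a mean of 4.14% ± 0.552 (SD, n = 2 mice). The intervals overlap, and they cover counting error only. Of the 3207 annotated epithelial cells, Paneth cells were 3.84% and 4.60% in replicates 1 and 2.

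Paneth cells store antimicrobial proteins in large granules and release them into the crypt lumen. Alpha-defensins, also called cryptdins, are short cationic peptides that damage bacterial membranes. In mice they are made as inactive precursors and cut to their active form by the protease Mmp7, while lysozyme (Lyz1) breaks bacterial cell walls. Paneth cells sit between the intestinal stem cells and supply them with Wnt, Notch and EGF signals. They carry a dense rough endoplasmic reticulum and accumulate zinc in their granules. The Paneth lineage needs Wnt signalling, Sox9 and the secretory factor Atoh1.

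Both mice were male and 12 months old, and both carried the miR-375 deletion, made with CRISPR/Cas9. Founder embryos were FVB x B62J hybrids, the line was then bred to B6 albino mice, and the strain label is C57BL6/2J. Crypts of the jejunum were dissociated with dispase and each mouse gave 1 library of 10x 3′ single-cell RNA-seq. The kit captures polyadenylated transcripts and not mature miRNAs, so the deletion could not be checked in these libraries. Because both mice had the same genotype, no value here measures the effect of losing miR-375, and wild-type libraries were not analysed here. How much FVB sequence remained in either mouse was not measured. With 1 library a mouse, differences between the mice cannot be told apart from differences between the libraries, and no p-value is given for any comparison.

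The 2 libraries differed in depth and in how many barcodes the deposited matrices list. Replicate 1 had 7665 barcodes and 64305085 unique molecular identifiers (UMIs, each standing for 1 captured transcript), and its smallest barcode had 485 UMIs. Replicate 2 had 1251 barcodes and 23675011 UMIs, and its smallest barcode had 7842 UMIs. The libraries shared 0 barcodes. No cell of the Paneth annotation had over 3 times the median UMI count of the Paneth cells of its library.

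The Paneth annotation was first set against 5 defining markers, Lyz1, Defa17, Defa24, Ang4 and Mmp7. The markers together were 26.4% to 57.2% of a Paneth cell's UMIs in replicate 1, with a median of 48.6%, and 25.9% to 49.2% in replicate 2, with a median of 38.7%. The medians of the other 8 epithelial types lay between 0% and 0.112% in replicate 1 and between 0% and 0.0246% in replicate 2. The annotated Paneth cell with the smallest marker share was far above each of these medians. It was closer to the highest single goblet cell, at 19.1% in replicate 1 and 13.5% in replicate 2. The authors may have used these genes to name the cluster, so the values describe the label and do not test it. In single genes, Lyz1 was at 91311 counts per 1000000 UMIs (CPM) of the whole sum in Paneth cells of replicate 1 and 65733 in replicate 2, while goblet cells, the next type, were at 702 and 978. Ang4, an antimicrobial ribonuclease, was at 10632 and 10488 CPM against 36 and 79.1 in goblet cells. Mmp7 had the smallest distance to the next type of the 5 markers, at 2719 and 1468 CPM against 352 and 205 in goblet cells, or 7.72- and 7.15-fold. These CPM values have no length correction, since a 3′ UMI counts a transcript once whatever its length.

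Transcripts of the 10 genes that dominate Paneth cells were also present elsewhere, at low level in the sums but unevenly over cells. They were 0.555% of the UMIs of goblet cells in replicate 1 and 0.517% in replicate 2, and 0.002% to 0.149% and 0% to 0.213% of the UMIs of the other types. The median goblet cell had 0.107% and 0.00973%, while the highest had 18.9% and 13.3%. In goblet progenitors of replicate 2 the median was 0% and the highest cell had 9.12%. Defa24 and Lyz1 stood in a ratio of 3.92 and 4.52 in Paneth cells and of 4.90 and 3.77 in goblet cells. In replicate 2 tuft cells, stem cells, transit amplifying (TA) cells and enterocytes held 0 UMIs of either gene. The methods describe a removal of ambient RNA, but which of the deposited matrices it was applied to is not given in the sources used here, and the source of these transcripts was not tested.

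The 10 leading genes made up most of the Paneth transcriptome. Their sum was 81.5% of Paneth UMIs in replicate 1 and 81.9% in replicate 2, a mean of 81.7% ± 0.234 (SD, n = 2). Defa24 alone was 35.8% and 29.7%, with a range over single cells of 18.4% to 44.1% and 19.7% to 38.4%. No Paneth cell in either mouse was without it. Next came the defensin gene Gm15284, at 8.79% and 11.8%. Lyz1 was at 9.13% and 6.57%. The defensins AY761184 (7.16% and 5.93%), Defa22 (3.73% and 5.73%), Gm14851 (3.96% and 5.48%) and Defa21 (3.48% and 5.39%) were also among them. Itln1, a lectin that binds microbial sugars, was at 4.96% and 2.32%. The last of the 10, Defa20, was at 0.393% in replicate 1 and 5.14% in replicate 2, so that its place among the 10 rests on replicate 2. These 10 genes were chosen by their level, so the sum is a description.

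**Figure D1:**
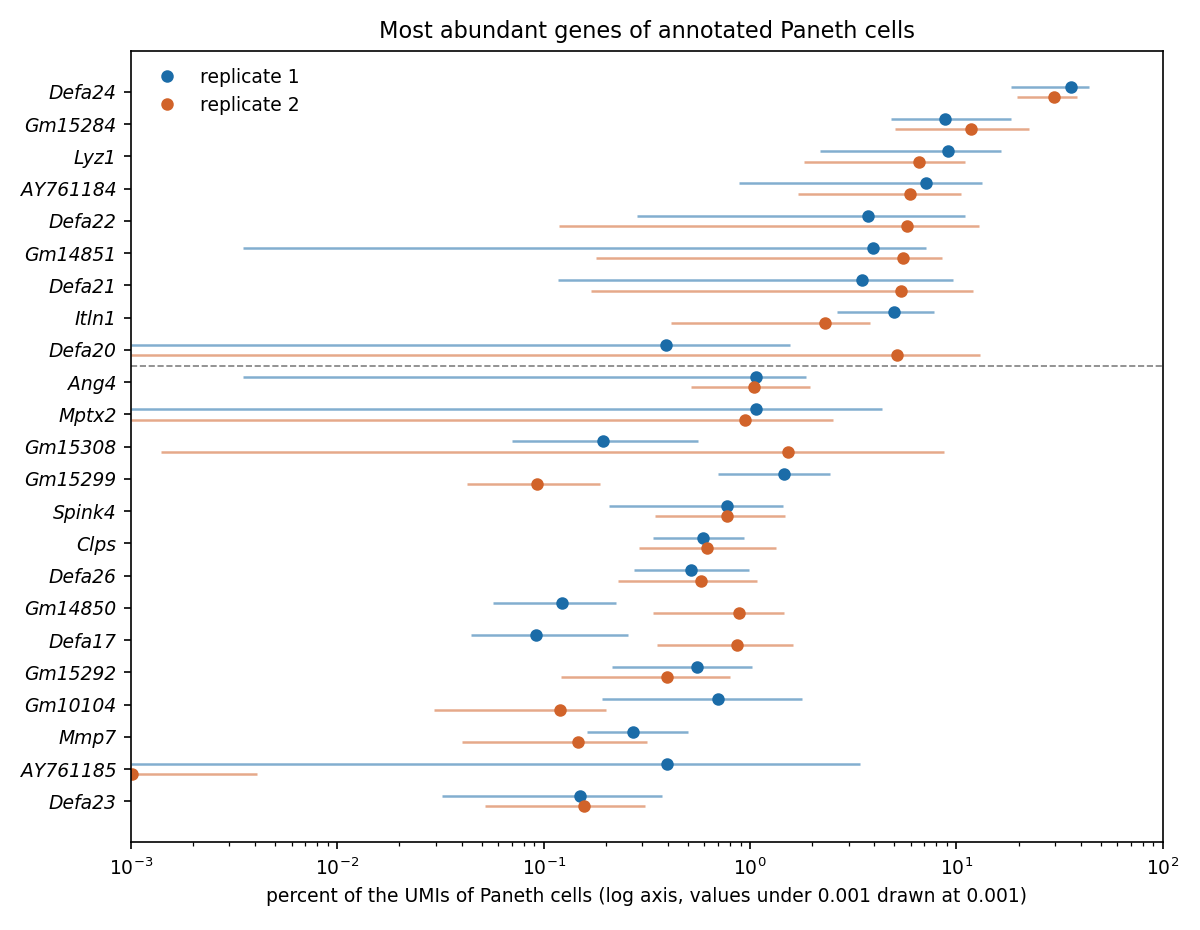
Percent of Paneth UMIs for the most abundant genes reported here (log axis). Points are the sums over 78 cells of replicate 1 (blue) and 54 cells of replicate 2 (orange), bars span the lowest to the highest single cell, and genes above the dashed line are those left out of totals; Defa24 leads in both mice and Defa20 stands at 0.393% and 5.14%.

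The alpha-defensin family had 26 members in the matrices, and together they were 71.4% of Paneth UMIs in replicate 1 and 78.1% in replicate 2. Only Defa2 had no UMI in either mouse. Of the 10 leading genes, 8 belonged to the family and held 67.4% and 73.0%. The genes lie next to each other on mouse chromosome 8, with Defa21 at chr8:21025545-21026516 and Defa24 at chr8:21734494-21735471 (GRCm38, GENCODE M21 annotation, both on the plus strand).

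The sequences just before Defa22, Defa21 and Gm14851 are shown because the transcripts of Defa22 and Defa21 moved opposite to those of Gm14851 between single Paneth cells, as described further on. They are from RefSeq (GRCm38.p6), run 5′ to 3′ on the strand of the gene and end at the base before the annotated start. Capitals mark TATAAA, the TATA box sequence, and TCAAAG, which is CTTTGA on the other strand and is the core bound by Wnt-pathway TCF factors. Defa22 (chr8:21162027-21162276, plus strand) and Defa21 (chr8:21025295-21025544, plus strand) have the same 250 letters, so the run is printed once. The Gm14851 run (chr8:21096051-21096300, minus strand, Defa38 in RefSeq) lies before a gene start that is the start codon in GENCODE M21.
Defa22 and Defa21: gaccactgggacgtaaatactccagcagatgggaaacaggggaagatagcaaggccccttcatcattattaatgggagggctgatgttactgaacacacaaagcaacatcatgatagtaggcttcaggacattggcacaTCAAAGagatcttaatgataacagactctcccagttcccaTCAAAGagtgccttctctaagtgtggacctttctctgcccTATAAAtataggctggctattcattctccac
Gm14851: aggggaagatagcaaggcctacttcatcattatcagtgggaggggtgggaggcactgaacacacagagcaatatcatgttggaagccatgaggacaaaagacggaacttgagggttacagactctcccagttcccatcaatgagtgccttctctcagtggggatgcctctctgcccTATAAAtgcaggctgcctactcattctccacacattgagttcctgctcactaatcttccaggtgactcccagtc
TATAAA lies 31 bases before the annotated start of Defa22 and 74 bases before that of Gm14851. The Defa22 run holds TCAAAG 2 times and the Gm14851 run holds it 0 times on either strand.

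A RefSeq promoter entry was matched by 14 family members and by AY761185, a gene of the same cluster on chromosome 8 that was not on the family list, and not by Defa24 or AY761184. TATAAA on either strand was in 15 of 15 of these runs and in 12.4% of 32851 mouse promoters of the same length. CTTTGA on either strand was in 11 of 15 (73.3%) and in 13.8% of all. The motifs do not overlap each other. The 15 runs are copies of one another to a large degree, with 74.3% to 100% identity over aligned letters and a median of 79.8%, so they are not independent examples of either motif. A match describes letters only and shows no bound factor, and a link between these letters and the pattern over single cells was not tested.

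Paneth cells had the most UMIs per cell and the fewest genes. In replicate 1 the cells had 22643 to 69387 UMIs, with a median of 44683.5, and in replicate 2 they had 35194 to 133089, with a median of 80820. The medians of the other epithelial types were 7399.5 to 28554.5 and 9389.5 to 19683. Paneth cells, 3.84% and 4.60% of the epithelial cells, therefore held 8.03% and 19.9% of all epithelial UMIs. Genes detected per Paneth cell ran from 1506 to 2853 with a median of 1918 in replicate 1, and from 1557 to 3145 with a median of 2161 in replicate 2, below the medians of all other types (2704.5 to 5091.5 and 2718 to 4017.5).

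The difference in genes per cell was larger once depth was made equal. With each cell thinned to 5000 UMIs, the median Paneth cell had 393.5 genes in replicate 1 and 299 in replicate 2, against 1582.5 to 2097 and 1512 to 1939 in the other types. With the 10 leading genes taken out first and each cell then thinned to 5000 of its remaining UMIs, the medians were 1374 and 1122.5 genes, and goblet cells, the lowest of the other types, had 1596.5 and 1528.5. Most of the gap thus lay in the 10 genes, and a smaller gap in the same direction remained. Within Paneth cells, the share of the 10 genes and the number of genes detected had a Spearman rho of -0.504 over 78 cells and -0.694 over 54 cells. Both quantities come from the same UMIs of the same cell.

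Mitochondrial transcripts were scarce in Paneth cells. Their median share was 0.0907% of UMIs in replicate 1 and 0.185% in replicate 2, against 4.71% to 13.2% and 2.19% to 7.59% in the other types. As a share of the UMIs summed over cells and left without the 10 leading genes, they were 0.807% and 1.5% in Paneth cells and 6.2% to 13.8% and 3.43% to 7.63%. Paneth cells therefore stood lowest on both scales and in both mice. The authors discarded cells under 1500 genes. In replicate 1, 19 of 78 Paneth cells (24.4%) lay less than 250 genes above that limit, and in replicate 2 it was 7 of 54 (13%), while the shares in the other types were 0% to 3.25% and 0%. More annotated Paneth cells than cells of any other type thus lay close to the limit, in proportion.

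**Figure D2:**
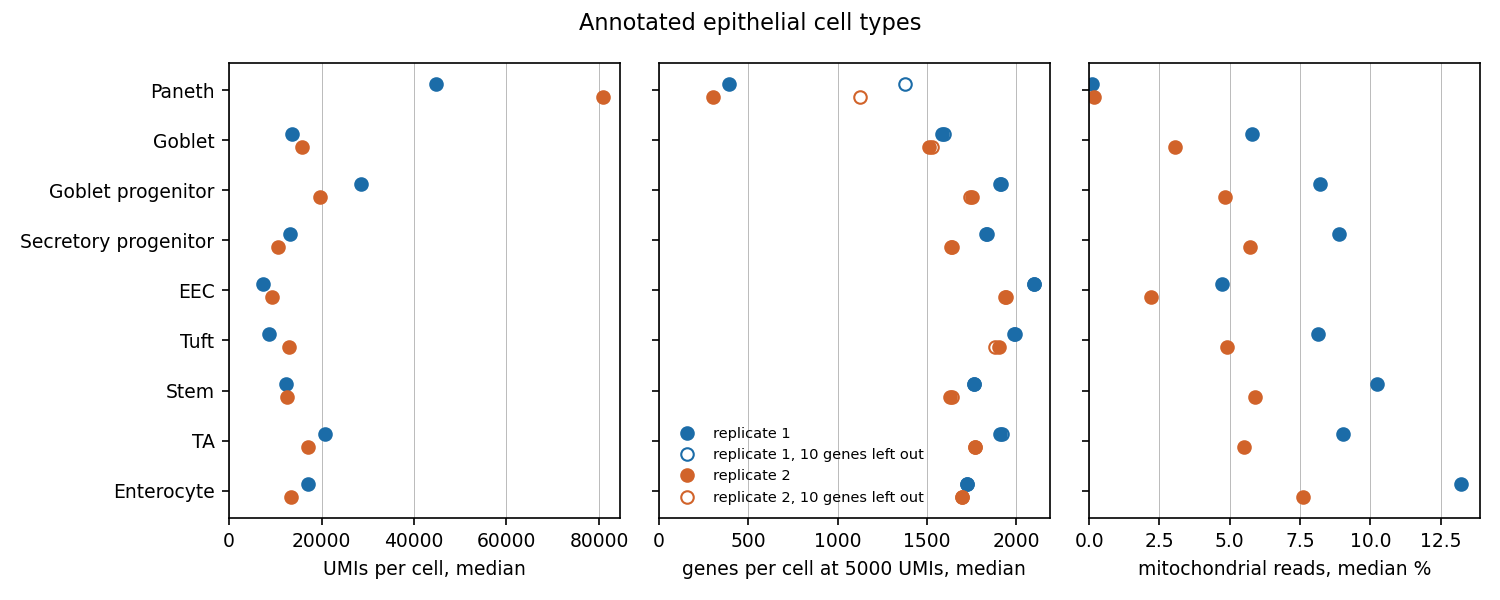
Median UMIs per cell, median genes per cell after thinning to 5000 UMIs, and median mitochondrial percent for the 9 annotated epithelial types in replicate 1 (blue) and replicate 2 (orange). Open circles have the 10 leading Paneth genes left out before thinning; Paneth cells have the most UMIs, the fewest genes and the lowest mitochondrial share in both mice.

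For all other genes, UMIs were summed over the cells of each type and mouse and given as CPM of the UMIs left after the 10 leading genes were removed. Paneth sums then rested on 649334 UMIs in replicate 1 and 791635 in replicate 2, of 3515066 and 4363692 in all. Within each mouse, the Paneth level was divided by the average of the 8 other epithelial levels, each type weighing the same, as a log2 ratio after adding 5 CPM to both. A gene was called when both mice showed a change of 2-fold or more in 1 direction, with no p-value, since the cluster was made from these genes. Of 5347 genes with a mean of at least 20 CPM, 122 (2.28%) were higher in Paneth cells and 1645 (30.8%) were lower. At least 2-fold above each of the 8 types, one by one, were 43 genes (0.804%). The mean of at least 20 CPM includes the Paneth sums. Genes scarce in the other types, such as Wnt3, Slc30a2, Habp2, Lyz2, Pnliprp2, Bambi and Atg7, passed only through their Paneth level, and nothing is read from their higher calls.

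The balance of these counts moved with the scale. The median log2 ratio of all 5347 genes was -0.77 and -0.95 in replicates 1 and 2, so a typical gene was already lower in Paneth cells. With totals of all UMIs the ratios shifted by a median of -1.66, and 38 genes were higher and 5117 lower. With edgeR's TMM factors they shifted by 0.55, with 264 genes higher and 675 lower. Centred on the median gene, 395 were higher and 428 lower. Higher genes were 6.90% of the calls on the scale used here, 0.737% with all UMIs, 28.1% with TMM and 48.0% when centred. Of the 122 higher genes, 38 were also higher on all UMIs, and of the 1645 lower genes, 675 were also lower under TMM.

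Outside the 10 leading genes, the largest excesses were again granule proteins. Mptx2, a pentraxin of the intestinal mucosa, was at 57788 CPM in replicate 1 and 52080 in replicate 2, and the other types had a mean of 4.99 CPM in replicate 1 and no UMI in replicate 2. Ang4 was at 57554 and 57811 CPM against 15 and 12.4. It was even between the mice, with log2 ratios of 11.49 and 11.70. Mmp7 was at 14718 and 8091 CPM against 71.0 and 47.7. All 3 of the fixed markers outside the leading 10 (Ang4, Defa17 and Mmp7) were above each other type, with a median log2 ratio of 8.47 and 9.15. Over all genes 0.804% were above each other type. The markers were fixed to describe these cells, so nothing is read from that count.

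Among defensins outside the leading 10, Defa26 stood at 27887 and 32043 CPM against 2.42 and 0.66. Gm15292 was at 30048 and 21710 CPM against 1.82 and 2.42. Defa23 had 8082 and 8601 CPM against 0.32 and 0.02. All 15 tested family members were higher in Paneth cells and all 15 were above each other type, with a median log2 ratio of 9.59 and 10.01 against -0.77 and -0.95 over all genes. Family members were part of what set the cluster apart, so nothing is read from that count.

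Paneth cells also carried lipid-handling transcripts known from the pancreas. Clps, the colipase that anchors pancreatic lipase to fat droplets, was at 31868 and 33931 CPM, and goblet cells, the next type, were at 192 and 153. Pnliprp2, a relative of pancreatic lipase, was at 3234 and 2605 CPM against a mean of 4.08 and 1.22 in the other types. Both genes were found in nearly every Paneth cell, Clps in 78 of 78 and 54 of 54 and Pnliprp2 in 77 of 78 and 54 of 54. Habp2, a hyaluronan-binding protease, was at 431 and 246 CPM against 1.95 and 0.99.

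Bambi, a membrane decoy receptor that dampens TGF-beta and BMP signalling, was at 922 and 999 CPM in Paneth cells. The other types had a mean of 13 and 24 CPM, and the highest of them, enteroendocrine cells (EEC), had 50.0 and 153. Nupr1, a stress-induced nuclear protein, was at 4033 and 3009 CPM against 33.2 and 87.6, in 78 of 78 and 54 of 54 cells. Leaving the fixed markers aside, the remaining genes of the 20 with the largest excess in the less extreme mouse, among genes above every other type, were defensin genes or predicted genes (Gm15308, Gm10104, Gm15299, Gm14850, Gm15315, Gm15293, Defa3, Gm7861, Gm21002, Gm7849 and Gm6696), with log2 ratios of 6.29 to 12.82 in replicate 1 and 6.94 to 13.83 in replicate 2. Where the other types had few UMIs, these ratios depend on the added 5 CPM. Of the 122 higher genes, 28 were members of the defensin list or of the list of other granule and secreted proteins.

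Of 22 genes on the list of other granule and secreted proteins, 21 were in the matrices and 16 were tested, with 13 higher and 3 lower and a median of 3.54 and 2.91. Over all genes 2.28% were higher and 30.8% lower. Some of the 13, such as Habp2 and Lyz2, were tested only because of their Paneth level, so the count is a description. With all UMIs as the total, 7 were higher and 3 lower. Spink4, a secreted peptidase inhibitor shared with goblet cells, was at 41824 and 42520 CPM, and goblet cells were at 26853 and 34477. Guca2b (uroguanylin) was at 5743 and 3898 CPM, above enterocytes at 2330 and 1912. With all UMIs as the total, Guca2b was 0.106% and 0.0707% of Paneth UMIs. On that scale Guca2b stood below enterocytes, and Spink4 below goblet cells, in both mice. Reg4 was at 4834 and 6089 CPM, while EEC had 3375 and 6685, so on the scale without the 10 genes its order against EEC differed between the mice. Lyz2, the lysozyme of myeloid cells and a neighbour of Lyz1 on chromosome 10, was at 160 and 341 CPM from 104 and 270 UMIs.

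Not all antimicrobial genes were high in Paneth cells. Reg3g, a lectin that binds Gram-positive bacteria, was called higher than the mean of the other types at 3651 and 1388 CPM, but enterocytes were above it at 4553 and 2802, and with all UMIs as the total its mean log2 ratio was -0.73. Its relatives Reg3a and Reg3b had 0 UMIs in Paneth cells of either mouse, with Reg3b at a mean of 2199 and 349 CPM in the other types and highest in enterocytes. A count of 0 leaves room for up to 3 UMIs of 649334 and of 791635. Pigr, which carries antibodies across the epithelium, was lower at 613 and 484 CPM against 1274 and 1219.

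Of the 17 niche signal genes, only Wnt3 and Dll1 had enough UMIs to be tested, and Wnt3 passed only through its Paneth level. Wnt3, the Wnt ligand through which Paneth cells feed stem cells, was higher in Paneth cells, at 213 CPM in replicate 1, with an exact Poisson interval of 179 to 251, and at 159 CPM in replicate 2, with one of 133 to 190. The other types had a mean of 7.75 and 11.5 CPM, with EEC next at 30.6 and 51.1. Wnt3 was found in 65 of 78 and 48 of 54 Paneth cells, from 138 and 126 UMIs. The Notch ligand Dll1 was lower, with 5 and 7 UMIs (7.70 and 8.84 CPM) against 57.1 and 48.3 CPM, and the highest type was the secretory progenitor in both mice. Dll4, the other Notch ligand named for Paneth cells, had 19 and 6 UMIs. Egf had 10 and 5 UMIs and Tgfa 4 and 8. Of the 17 genes, 6 (Wnt6, Wnt9b, Wnt11, Ereg, Jag2 and Il11) had no UMI in the Paneth cells of either mouse.

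Among 23 fate and identity regulators, 19 were tested, with 3 higher and 6 lower, and with all UMIs as the total 1 was higher and 16 lower. Over all genes 2.28% were higher and 30.8% lower, so the share of lower regulators was near that of all genes. Besides Nupr1, the higher genes were Creb3l4, an endoplasmic reticulum-bound transcription factor, with log2 ratios of 1.6 and 1.37, and Foxa3, a secretory lineage factor, with 1.46 and 1.06. Both were higher still in goblet cells, Creb3l4 at 171 and 134 CPM against 120 and 85.9 in Paneth cells. Sox9, needed to form Paneth cells, was at 162 and 130 CPM against 105 and 91.6, with ratios of 0.60 and 0.48, and was highest in tuft cells. Atoh1, Spdef and Xbp1, factors of the secretory lineage, had ratios of 1.17 and 0.58, 1.04 and 0.11, and 0.80 and 0.20, which were not 2-fold in both mice. The lower genes were Fzd5, Efnb1, Cdx1, Cdx2, Neurog3 and Hes1. Fzd5, a Wnt receptor known from Paneth cell maturation, was at 20 and 12.6 CPM against 56.2 and 63.2.

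Genes of the endoplasmic reticulum and protein export were mixed. Of 55 genes, 51 were tested, with 10 higher and 1 lower, beside 2.28% higher and 30.8% lower over all genes. Their median was 0.69 and -0.01 against -0.77 and -0.95 over all genes. The higher genes were Edem1, which passes misfolded glycoproteins to degradation (2.56 and 1.96), Spcs3 (2.34 and 1.09), Tmed3 (2.06 and 1.66), the disulfide isomerase P4hb (1.75 and 1.26), the chaperone partner Dnajc3 (1.72 and 1.48), Dnajb9, Srp9, Sec11c, Tmed10 and Ssr4. Ssr2 was the lower gene. The main chaperone Hspa5 was at 536 and 222 CPM against 550 and 381, and Agr2, an isomerase of mucus-making cells, was at 2931 and 2847 against 6083 and 5061. Direction depended on the scale here, since with all UMIs as the total 0 genes were higher and 39 lower, and with TMM 20 were higher and 0 lower.

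Slc30a2, which loads zinc into the secretory granules, was the 1 higher gene of 16 tested on the zinc list, and 4 were lower. Over all genes 2.28% were higher and 30.8% lower, so the list held no larger share of lower genes. Slc30a2 passed the filter only through its Paneth level. It had 107 and 190 UMIs in Paneth cells, or 165 and 240 CPM against 6.68 and 1.38 in the other types, with log2 ratios of 3.86 and 5.26. The metallothioneins, which bind free zinc in the cytosol, were lower. Mt1 was at 102 and 147 CPM against 417 and 674, and Mt2 had 1 and 4 UMIs against a mean of 48.3 and 145 CPM. Mtf1, the zinc sensor that drives metallothioneins, and the importer Slc39a5 were also lower, and 11 of the 16 were neither. With all UMIs as the total, 1 of the 16 was higher and 13 were lower.

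On the autophagy list, 2 of 18 tested genes were higher and 0 lower, beside 2.28% and 30.8% over all genes. With all UMIs as the total 0 were higher and 15 lower. Atg7, the enzyme that starts the conjugation of autophagy proteins, was at 149 and 97.3 CPM against 16.5 and 14.2, and Lamp2, a lysosome membrane protein, was at 476 and 200 CPM against 69.3 and 42.5. Of the 2, Atg7 passed the filter only through its Paneth level, so nothing is read from the count of higher genes. Among regulated secretion genes, 0 of 14 were higher, and Kcnn4, Cplx2, Chga and Chgb were lower, a share near the 30.8% lower over all genes (12 lower with all UMIs as the total, and 2 higher and 4 lower with TMM). Of these, Chga and Chgb are granins of EEC. On the list of microbial sensing and innate response, 0 of 11 tested were higher and 6 were lower, beside 30.8% lower over all genes. With all UMIs as the total 11 were lower, and with TMM 4 were. The inflammasome adaptor Pycard was at 72.4 and 135 CPM against 1102 and 830, and Casp1 had 6 and 0 UMIs. Nod2, the sensor of bacterial wall fragments that is known from Paneth cells, had 0 UMIs in both mice and was not tested.

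Glycolysis genes were low in Paneth cells. Of 13 tested, 11 were lower and 0 higher, beside 30.8% lower over all genes, and with TMM 6 were lower. The list median was -2.0 and -1.89 against -0.77 and -0.95 over all genes, or -1.24 and -0.94 relative to it. Ldha, which makes lactate from pyruvate, was at 168 and 124 CPM against 800 and 609. Pkm was at 43.1 and 25.3 CPM against 277 and 233. Bsg, the partner of lactate carriers, was among the 2 that were neither, at 713 and 429 CPM against 668 and 545.

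Of 12 tested mitochondrially encoded transcripts, 10 were lower and 0 higher, beside 30.8% lower over all genes, with a median of -2.69 and -1.93. They were lower to different degrees in the mice. mt-Co3 had a ratio of -6.30 in replicate 1 and -2.13 in replicate 2, while mt-Nd4 had -2.30 and -2.25. UMIs of mt-Co3 were found in 11 of 78 and 34 of 54 Paneth cells, and 1 cell held 20.9% of those in replicate 1. Immediate early genes, which rise during tissue dissociation, had 0 of 9 called either way (5 lower with all UMIs as the total), and their median was -0.29 in replicate 1 and 1.15 in replicate 2.

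**Figure D3:**
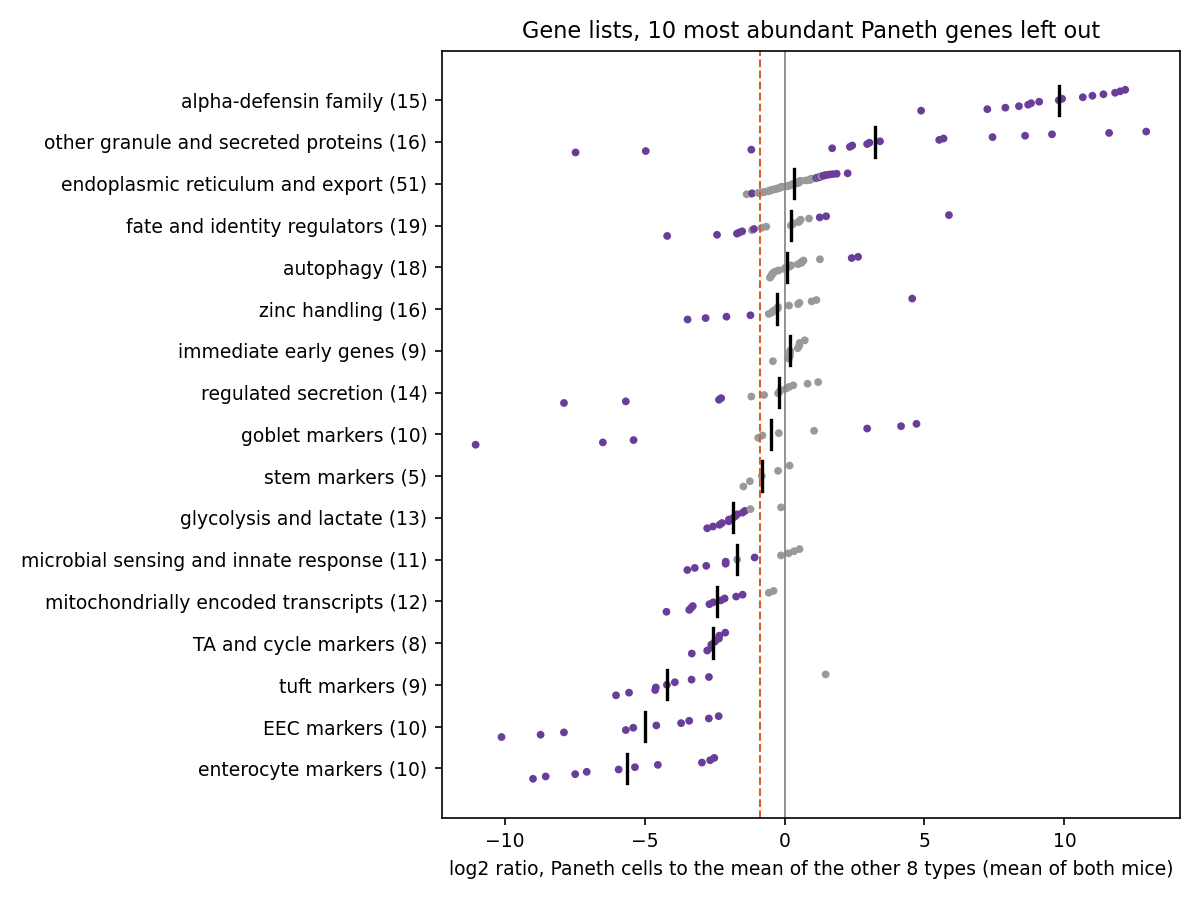
Log2 ratio of Paneth cells to the mean of the other 8 epithelial types, averaged over both mice, for each tested gene of 17 lists (number tested in brackets). Purple points are called in the same direction in both mice, grey points are not, black bars are list medians and the dashed line is the median of all 5347 genes; defensin and granule genes lie to the right, enterocyte, EEC and tuft markers to the left.

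Markers of other epithelial types were mostly low or missing, beside 30.8% of all genes called lower. All 10 enterocyte markers were lower, and their sum was 40 UMIs in Paneth cells of replicate 1 and 12 in replicate 2, with 6 of the 10 at 0 in both. All 10 EEC markers were lower, with sums of 69 and 67 UMIs and 6 at 0 in both. Of 9 tested tuft markers 8 were lower and 8 of the 10 on the list were at 0 in both mice, and the ninth tested, Cd24a, a surface protein also used to sort Paneth cells, was at 2675 and 1732 CPM against 2703 and 6103 in tuft cells. All 8 tested TA and cell cycle markers were lower, with a median of -2.99 and -1.68, and with TMM 4 of the 8 were lower. Of 5 tested stem cell markers 0 were called either way (4 lower with all UMIs as the total), with Smoc2 at 78.5 and 77.1 CPM against 70.1 and 66.1 and Olfm4 at 0 and 7 UMIs. The 10 genes with the strongest deficit, ranked by the less extreme mouse, were Zg16, Fabp1, Fabp2, Rbp2, Apoa1, Cck, Gcg, Ghrl and Chgb, each with 0 UMIs in Paneth cells of both mice, and Gip, with 0 and 3. The mean of the other types is carried by 1 type here, as for Ghrl in replicate 2, at 1112 CPM with EEC at 8900. Of the 10, only Fabp2 ranked Paneth cells 9 of 9 types in both mice, where the rank counts types strictly above them and ties at 0 UMIs share a rank. Paneth cells ranked 4 of 9 in both mice for Gip and Gcg, tied at 0 UMIs with other types for Gcg in both mice and for Gip in replicate 1. These genes are thus not particularly missing from Paneth cells.

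Goblet cell markers were split. Of 10 tested, 3 were higher, 3 lower and 4 neither, beside 2.28% higher and 30.8% lower over all genes. With all UMIs as the total 2 were higher and 7 lower. Ccl6 was at 6437 and 5678 CPM in Paneth cells against 1218 and 1684 in goblet cells. Ramp1 was at 919 and 576 CPM against 328 and 145, and Spink4 is given above. Muc2, the gel-forming mucin, was at 3926 and 1386 CPM in Paneth cells and 9580 and 4065 in goblet cells, and Tff3 was at 4283 and 9338 against 42781 and 67576. Zg16, Clca1 and Fcgbp were lower, with Zg16 at 0 UMIs in both mice. Thus 3 goblet markers were above their goblet level on this scale, while Zg16 was missing and Muc2 and Tff3 were below it. That excess depends on the total. The 10 leading genes held 81.5% and 81.9% of Paneth UMIs but 0.555% and 0.517% of goblet UMIs. Of all Paneth UMIs, Spink4 was 0.773% and 0.771% and Ccl6 0.119% and 0.103%. With all UMIs as the total, the 3 markers stood below goblet cells in both mice.

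Markers of immune and stromal cells were at few UMIs apart from Ccl5 in replicate 2. The list of intraepithelial lymphocyte (IEL) markers summed to 3 UMIs in Paneth cells of replicate 1 and 420 in replicate 2, or 4.62 and 531 CPM, against 1.12 to 36.8 and 5.07 to 1281 in the other epithelial types. Of the 8 markers only Ccl5 was tested, with 0 and 357 UMIs. It was found in 0 of 78 and 45 of 54 Paneth cells, and 1 cell of replicate 2 held 28.6% of its UMIs. Ccl5 was also at least 2-fold higher in replicate 2 in 6 of the other 8 types. The plasma and B cell list summed to 14 and 15 UMIs, and its 1 tested gene, Sdc1, was lower. The myeloid and mast cell list summed to 2 and 25 UMIs and the stromal list to 3 and 8, and no gene of either was tested. In a sum over cells, fewer transcripts per cell and fewer cells with the transcript cannot be told apart.

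The mice differed in which defensin genes their Paneth cells used. Of 26 genes with enough UMIs (the family without Defa2, and AY761185), 10 had at least a 2-fold larger share of all Paneth UMIs in replicate 2 and 3 in replicate 1. Over all 1378 genes with at least 50 Paneth UMIs in 1 mouse, the shares were 7.98% and 19.4%. Defa20 was 13.1-fold higher in replicate 2, Defa17 9.39-fold (0.0922% and 0.865%), Gm15308 7.88-fold (0.194% and 1.52%) and Gm14850 7.15-fold (0.123% and 0.879%). At lower shares, Gm7861 was 10.9-fold higher in replicate 2 (0.0192% and 0.209%) and Defa5 12.5-fold, from 28 and 436 UMIs. In the opposite direction, Gm15299 was 15.7-fold higher in replicate 1 (1.46% and 0.0927%) and Gm10104 5.81-fold (0.699% and 0.120%). For Gm15299, Gm14850, Defa17 and Gm7861 the single-cell ranges of the mice did not overlap. How many of all genes had such ranges was not counted, so nothing is read from it. Defa24, Gm15284 and AY761184, which are far more abundant, differed by at most 1.34-fold. AY761185, singled out after its values were seen, had 13889 UMIs in 42 cells of replicate 1 and 44 UMIs in 31 cells of replicate 2.

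On the scale without the 10 leading genes, 1044 of 5347 tested genes (19.5%) differed by at least 2-fold between the Paneth cells of the mice, 759 higher in replicate 1 and 285 higher in replicate 2. In the other types it was 5.22% to 21%, with secretory progenitors, at 31 and 19 cells, above Paneth cells. Among genes of at least 100 CPM in 1 of the mice it was 228 of 955 (23.9%) in Paneth cells and 9.05% to 19.5% in the others, where Paneth cells had the highest share. The other large differences were in part shared with every other type. Gm10260, Gm42418, Lars2 and Hopx were higher in replicate 1, and Rps18 and Gm8730 higher in replicate 2, in Paneth cells and in all 8 other types. Among the defensins, Gm14850 moved the same way in 8 of the 8 other types, Defa17 in 6, Gm15299 in 4, Gm10104 in 1 and Defa20 and Gm15308 in 0. The transcript mt-Co3 moved the same way in 0 other types. Fcgbp was higher in replicate 2, where 1 cell held 24.1% of its UMIs.

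The read assignment of many defensin genes is uncertain. In the last 300 bases of their transcripts, 12 of 27 genes (the 26 members and AY761185) shared at least 50% of their 90-base windows with another of the 27. Defa20, Gm15308 and Defa5 shared 99.5%, Gm7861 91.5% and Defa17 and Defa3 86.7%, whereas Gm14850 shared 35.5%, Gm10104 30.3% and Gm15299 10.6%. Defa24, AY761184 and AY761185 shared none. A read from a shared window fits more than 1 gene. A count for Defa20, Gm15308, Defa5, Gm7861 or Defa17 may therefore lack such reads or hold reads of their copies. How such reads were counted was not tested. The 13.1-fold difference of Defa20 between the mice rests on such a gene. The difference in Gm15299 rests on a gene with mostly its own windows. Sequence differences between the mice and the reference were not tested.

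Single Paneth cells differed in their mix of defensins, and many but not all pairs of members moved in the same direction in both mice. Defa21 and Defa22 rose and fell together, with a Spearman rho of their shares of 0.80 over 78 cells and 0.90 over 54 cells. They share 38.9% of their 90-base windows and the upstream letters printed above. Other genes with near-identical upstream letters had lower rho values. Gm14851 and Gm7861, at 97.2% identity, had 0.24 and 0.26, and Gm10104 and Gm14850, at 98%, had 0.44 and 0.23. Defa20 and Defa22 had rho values of 0.74 and 0.68, and Defa26 and Gm15292, which are outside the 10 leading genes, 0.74 and 0.85. AY761184 went the other way, with -0.73 and -0.74 against Defa22 and -0.71 and -0.72 against Defa20. Gm14851 had -0.62 and -0.64 against Defa22 and -0.61 and -0.61 against Defa21. Defa24 had -0.56 and -0.82 against Defa22 and 0.45 and 0.76 with AY761184. Gm15284 changed sign between the mice, with -0.43 and 0.41 against Defa24, -0.51 and 0.29 against AY761184 and 0.16 and -0.58 against Defa22.

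Of 171 pairs of defensin genes, 22 had a rho above 0.5 in both mice and 17 had one below -0.5 in both, while 46 had opposite signs in the mice. Of the 22 positive pairs, 17 shared no 90-base window. The shares of a cell sum to 100%, so a rise in one abundant gene lowers the others, and cells of a mouse share a library. Genes that are not defensins were mixed in their rho with Defa22. It was 0.07 and 0.19 for Lyz1 and 0.13 and -0.06 for Mptx2, but -0.50 and -0.42 for Spink4, -0.36 and -0.77 for Clps and -0.13 and -0.48 for Mmp7.

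The size of the spread is shown by 2 sums, which were chosen after the correlations were seen and are a description. Defa20, Defa21 and Defa22 together were 0.452% to 21.2% of a cell's UMIs in replicate 1, with a median of 6.12%, and 0.289% to 33.1% in replicate 2, with a median of 16.1%. AY761184 and Gm14851 together were 2.98% to 17.8%, with a median of 11.2%, and 4.45% to 18.2%, with a median of 12.0%. The 2 sums had a rho of -0.748 over 78 cells and -0.862 over 54 cells. The sum of Defa20, Defa21 and Defa22 had a rho of -0.106 with the cell's UMI count in replicate 1 and 0.435 in replicate 2, so the relation to depth differed between the mice. It was near 0 with Lyz1 (0.0436 and 0.134) and with Mptx2 (0.025 and 0.022). With Clps, which is no defensin, it was -0.379 and -0.818.

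**Figure D4:**
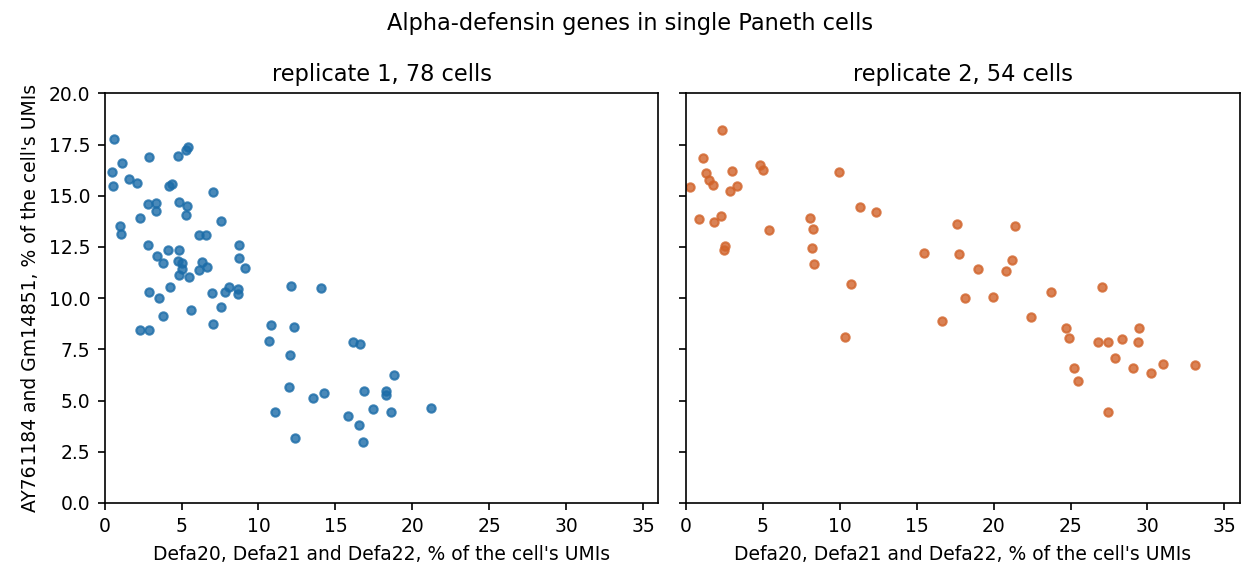
Each point is 1 Paneth cell, with the percent of its UMIs from Defa20, Defa21 and Defa22 on the horizontal axis and from AY761184 and Gm14851 on the vertical axis, for 78 cells of replicate 1 and 54 of replicate 2. Cells with more of the first sum have less of the second in both mice (rho -0.748 and -0.862).

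Many barcodes with Paneth markers were not among the annotated cells. The 10th percentile of the summed share of the 5 markers in annotated Paneth cells, 32.4% of UMIs in replicate 1 and 31.6% in replicate 2, was applied to every barcode of at least 500 UMIs outside the annotation. In replicate 1, 149 of 5573 such barcodes reached it, beside 70 of 78 annotated Paneth cells, and in replicate 2 it was 23 of 58, beside 48 of 54. None of 2004 and 1139 annotated cells of other types did. Of the 149, 93 had under 1500 genes and the other 56 were doublet calls of the authors, and of the 23 it was 14 and 9. Those under 1500 genes in replicate 1 had 195 to 1497 genes with a median of 674 and a median of 4535 UMIs, and 15 of them had at least as many UMIs as the smallest annotated Paneth cell. The share of Paneth cells given at the start is therefore a share after these filters. With a stricter filter of at least 2000 genes and at most 15% mitochondrial reads, 29 and 37 Paneth cells remained and the mean share was 2.51%.

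**Figure D5:**
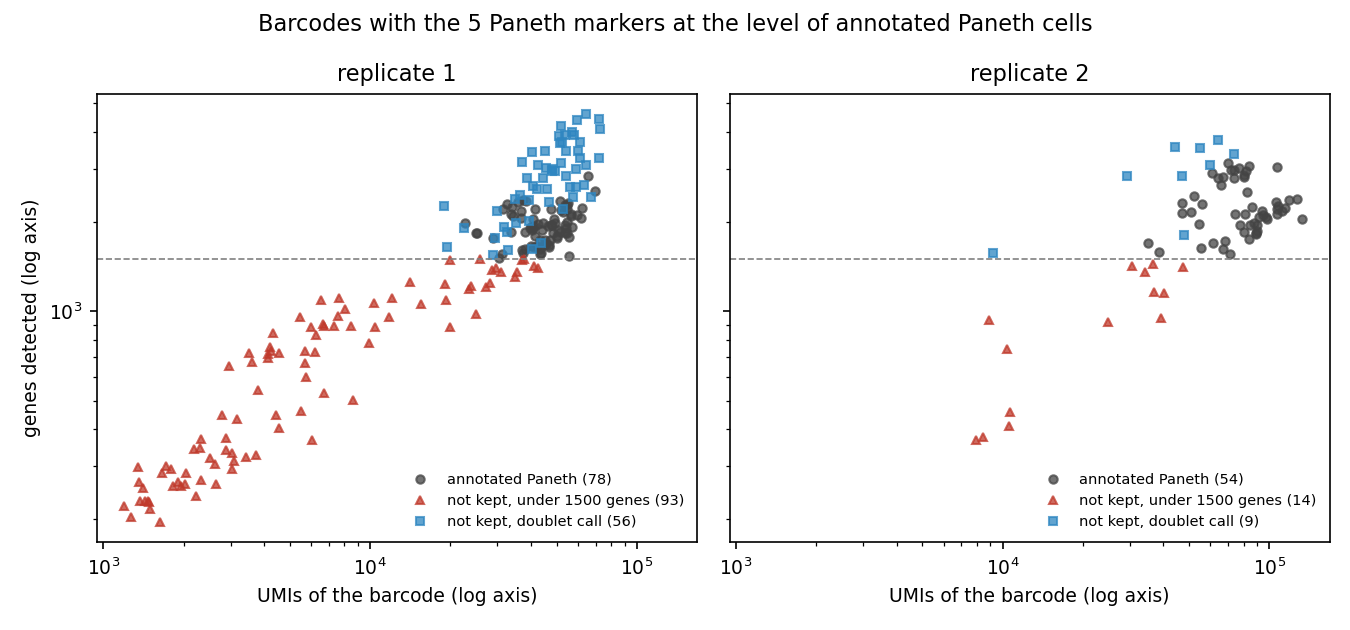
UMIs and genes detected (both log axes) of barcodes whose 5 Paneth markers reach the level of annotated Paneth cells, for replicate 1 and replicate 2. Grey circles are annotated Paneth cells, red triangles are barcodes under 1500 genes (93 and 14), blue squares are doublet calls (56 and 9), and the dashed line is the limit of 1500 genes.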

How the data were processed

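Libraries of the 10x 3′ kit were aligned by the authors to mm10 with Cell Ranger 3.0.1 and clustered with Seurat (3.2.1 in the submitters' processing notes). The methods state ambient RNA removal, doublet calling and the discarding of cells under 1500 genes or over 25% mitochondrial reads. The deposited matrices hold whole UMI counts per gene and barcode for 27998 genes, and the deposited cell table holds cell type names and the percent of mitochondrial UMIs. Another 2937 columns and 6059 doublet rows belong to other samples and were not used, nor were the authors' sctransform-corrected counts.

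Counts were summed per mouse over the cells of each of 9 epithelial types. IEL cells (68) were left out. The 10 genes with the largest share of Paneth UMIs were removed from totals, and 1 of them is not reported here. Genes were kept at a mean of at least 20 CPM over 18 sums, log2 ratios used a pseudocount of 5 CPM, and a call needed 2-fold in the same direction in both mice. Intervals are exact (Poisson or Clopper-Pearson, 95%) and cover counting error only. TMM factors came from edgeR 4.0.16 and median-of-ratios size factors from DESeq2 1.42.0, in R 4.3.3. Other steps used Python 3.11.15, numpy 2.4.6, scipy 1.17.1, pandas 2.3.3 and matplotlib 3.10.9. On simulated counts of 5347 genes the comparison of Paneth cells with the other 8 types called 100 of 100 genes set 4-fold higher, 85 of 100 set 4-fold lower and 0 of 5147 unchanged genes. The unchanged genes were given the same level in every type of a mouse, with counting error only. The simulation thus does not measure how many calls in the real data are wrong. Transcript ends came from GENCODE M21 and promoters from RefSeq, both on GRCm38, matched by symbol. No doublet caller was run here, and annotated cells carry the authors' singlet calls.

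The cells, the 23 gene lists and the tests were chosen with earlier results of these data known. Named genes were the 10 leading genes, the 5 markers, the 20 next largest excesses, by the less extreme mouse, among genes above every other type with at least 20 UMIs in each mouse, the 10 strongest deficits by the less extreme mouse, up to 4 list members with the most Paneth UMIs and any called member, and the 5 largest differences between the mice in each direction with at least 50 UMIs in 1 mouse. Genes named outside this rule were chosen after their values were seen. Alternatives were other totals and size factors, no filter, another pseudocount, pooled other cells, thinned cells, other cell filters and marker levels, and leaving out each mouse. Centring on the median gene was added after the data were seen.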

Additional observations from a re-analysis of the deposited data

Results flagged for a closer look

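Barcodes that the annotation leaves out held Paneth markers at the level of annotated Paneth cells, a signal in data that the comparisons do not use. There were 149 such barcodes in replicate 1 and 23 in replicate 2, while 0 of 2004 and 0 of 1139 annotated cells of other types reached that level. They were 68.0% (95% exact binomial interval 61.4 to 74.2) and 32.4% (21.8 to 44.5) of all barcodes at or above the level. The intervals do not overlap, but the matrix of replicate 2 lists no barcode under 7842 UMIs, so small barcodes were seen in replicate 1 alone. The barcodes under 1500 genes had a median of 73.6% of UMIs in the 10 leading genes and 1.28% in mitochondrial genes in replicate 1, and of 85.7% and 0.0345% in replicate 2. Of these, 6 of 93 and 1 of 14 were also doublet calls. The doublet calls of at least 1500 genes had a median of 48045 and 47862 UMIs, 2837 and 3110 genes, and 72.4% and 68.0% of UMIs in the 10 leading genes. Over 25% mitochondrial reads were found in 0 of the barcodes. Whether they are intact Paneth cells, fragments of them or pairs of cells was not tested.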

How the results depend on the processing

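No paired analysis was possible because there is only 1 group of mice, and the ratios of Paneth cells to other types were taken within each mouse. Counts of genes higher, lower and above each type were 122, 1645 and 43. They became 38, 5117 and 26 with totals of all UMIs, 264, 675 and 63 with TMM factors, and 314, 580 and 76 with median-of-ratios size factors. Without a filter on low values 243 genes were higher and 91 above each type, and relative to the median of all genes 395 were higher and 428 lower. Leaving out 1 mouse, so that a call rested on the other alone, gave 136 to 243, 2069 to 2485 and 46 to 71. Without replicate 1 the counts were 136, 2485 and 46. Genes that differed between the mice were 249 with totals of all UMIs and 228 at 100 CPM or more, instead of 1044. The Paneth share was 2.51% with the stricter cell filter, the share of the 10 leading genes was 82.6% as a median over cells, and barcodes outside the annotation were 31, instead of 172, at the median marker level.

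With totals of all UMIs, 10 called genes of the 72 named genes changed sign, to Reg3g -0.73, Creb3l4 -0.68, Foxa3 -1.03, P4hb -0.92, Dnajc3 -0.76, Edem1 -0.036, Tmed3 -0.51, Spcs3 -0.55, Srp9 -1.02 and Ssr4 -1.28. Sox9, Atoh1, Xbp1 and Muc2, which were not called, also went below 0. No other alternative changed the sign of a called gene among the 72. The 2-fold calls between Paneth cells and other types thus depend on the total for genes of moderate excess. Many niche, sensing and immune genes had too few UMIs to be tested, and with 2 mice no spread between animals beyond their 2 values can be given.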
